A study of Mus musculus with 2 samples.

Results

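Trdv4-negative gamma delta T cells are T cells of the small intestine whose transcripts carry the delta constant gene Trdc but not the delta variable segment Trdv4. They were chosen from single-cell counts of unique molecular identifiers (UMIs, each 1 captured transcript) by fixed limits. A member had 500 genes or more, no more than 10% of its UMIs from mitochondrial genes, at least 1 Cd3e UMI, at least 3 UMIs over the CD3 chains Cd3e, Cd3d and Cd3g, at least 1 Trdc UMI, and no UMI of the alpha constant gene Trac or of Trdv4. This gave 163 members among 20041 kept cells: 89 of 9251 in the IL-23 library and 74 of 10790 in the unstimulated library. Trdc, the CD3 chains, Trac and Trdv4 are therefore set by the choice and are given as a description only.

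Gamma delta T cells carry a T cell receptor built from a gamma and a delta chain in place of the alpha and beta chains of most T cells. In mouse barrier tissues a subset of them responds to IL-23 and IL-1 without prior antigen contact and makes IL-17 and IL-22, cytokines that act on epithelium and recruit neutrophils. The chains come from a small set of variable (V) segments, and in mice the V segment used goes along with the tissue and the programme of the cell: Trdv4 encodes the delta segment that pairs with Tcrg-V6 in 1 such type 17 population. IL-23 signals through the receptor chains Il23r and Il12rb1 and mainly activates the transcription factor STAT3. The cells of comparison with no T cell receptor are group 3 innate lymphoid cells (ILC3s), lymphocytes that share this response and of which 1 kind expresses the natural cytotoxicity receptor Ncr1.

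The first group is live eGFP-positive cells sorted from the small intestine of Il23r-eGFP mice (IL-23R-eGFP knock-in) and given recombinant mouse IL-23 for 2 h after the sort, at a dose the labels do not state. The second is cells of the same genotype, tissue and sort that the labels call unstimulated. Each group is 1 10x Genomics library, so no difference between them has a replicate check or a test. In both, the green fluorescent reporter marks cells that express the IL-23 receptor gene, so every cell had been selected for that, after removal of Peyer's patches and of epithelium. The protocol text attached to both samples mentions the stimulation, so the group rests on the treatment label. The labels state neither the number, sex and age of the mice nor how long the unstimulated cells were kept in culture, if at all.

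The 89 stimulated members held 696870 UMIs, with a median of 6900 per cell, and the 74 unstimulated members held 510183, with a median of 6260. They made up 0.962% of kept stimulated cells (95% exact binomial interval 0.773% to 1.18%) and 0.686% of kept unstimulated cells (0.539% to 0.860%). Every interval given here covers counting error only and not the spread between animals or libraries. Of 29 barcodes present in both libraries, 0 were members. The defining B cell genes Cd79a and Ms4a1, the macrophage genes Lyz2, Csf1r and Adgre1, and the neutrophil genes S100a8 and S100a9 were at 0 UMIs in members of both libraries. The summed level of the 8 B and plasma cell markers was 11.5 CPM in stimulated and 13.7 CPM in unstimulated members, where CPM is the share of a gene among all UMIs of the summed cells, scaled to 1000000. The 8 epithelial markers summed to 20.1 CPM and 7.84 CPM in the same order, with Krt8, Krt19, Cdh1, Vil1, Fabp2 and Reg3g at 0 in both. Of the 11 macrophage and dendritic cell markers, 3 were detected in stimulated and 4 in unstimulated members, with a summed level of 235 and 214 CPM, against 213 and 207 CPM in Ncr1-positive cells. Lyz2, Csf1r, Adgre1, C1qa, C1qb, Itgax and Flt3 were at 0 in members of both libraries. The part of these markers in the results was not tested.

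The limits cut through a continuous range for Trdc. A single Trdc UMI was present in 18 stimulated and 22 unstimulated members, 2 to 4 UMIs in 38 and 29, and 5 or more in 33 and 23. The median was 3 Trdc UMIs in stimulated and 2.5 in unstimulated members, against 14.5 and 13 in Trdv4-positive gamma delta T cells chosen by the same limits. The Trdv4-positive cells numbered 124 in the stimulated and 141 in the unstimulated library, and their own median of Trdv4 was 3 and 4 UMIs. Just inside the CD3 limit, 6 stimulated and 9 unstimulated members had a CD3 sum of exactly 3, and just outside it 3 and 5 cells that met every other limit had a sum of 2. Just outside the Trdv4 limit lay 37 stimulated and 19 unstimulated cells with 1 Trdv4 UMI. Among T cells with Trac, 13 of 107 stimulated (12.1%) and 20 of 175 unstimulated cells (11.4%) also had a Trdc UMI. Of these, 10 stimulated and 16 unstimulated cells had 3 or more Trdc UMIs.

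The receptor segments are shown first, because their likeness limits how a count can be read. The constant genes below are given by their first 90 coding bases on GRCm38, 5′ to 3′ on the strand of the gene, with capitals for bases that differ from Tcrg-C1. Tcrg-C1 lies at chr13:19214103-19214192 on the plus strand, Tcrg-C2 at chr13:19307462-19307551 on the minus strand and Tcrg-C4 at chr13:19344558-19344647 on the plus strand.
Tcrg-C1: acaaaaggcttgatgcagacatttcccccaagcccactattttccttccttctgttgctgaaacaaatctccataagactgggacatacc
Tcrg-C2: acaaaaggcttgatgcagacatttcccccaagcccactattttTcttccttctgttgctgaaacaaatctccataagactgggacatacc
Tcrg-C4: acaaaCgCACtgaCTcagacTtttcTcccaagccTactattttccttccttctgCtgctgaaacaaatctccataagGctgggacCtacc
Tcrg-C2 differed from Tcrg-C1 at 1 of these 90 bases and Tcrg-C4 at 12. Over the aligned coding sequence Tcrg-C1 and Tcrg-C2 were 97.4% identical, and Tcrg-C1 and Tcrg-C4 78.7%. UMIs of Tcrg-C1 and Tcrg-C2 are thus uncertain between these 2 genes, since the deposited counts do not show how such reads were placed.

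The V segments that carry the receptor results are given by their last 90 coding bases on GRCm38, 5′ to 3′ on the strand of the gene. Trgv2 lies at chr13:19336573-19336662 on the minus strand and its near copy Tcrg-V1 at chr13:19340365-19340454 on the plus strand, with capitals for bases of Tcrg-V1 that differ from Trgv2.
Trgv2: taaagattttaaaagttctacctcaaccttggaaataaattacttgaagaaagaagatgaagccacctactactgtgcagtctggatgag
Tcrg-V1: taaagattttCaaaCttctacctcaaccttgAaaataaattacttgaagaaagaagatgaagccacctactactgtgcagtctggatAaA
Tcrg-V6, at chr13:19190840-19190929 on the plus strand, and Trdv4, at chr14:54075426-54075515 on the plus strand, have no close copy in this set and are written in lower case throughout.
Tcrg-V6: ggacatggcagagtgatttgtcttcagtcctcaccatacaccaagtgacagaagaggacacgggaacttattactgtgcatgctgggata
Trdv4: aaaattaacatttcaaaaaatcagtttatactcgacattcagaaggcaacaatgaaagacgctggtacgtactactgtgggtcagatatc
Trgv2 and Tcrg-V1 differed at 5 of these 90 bases and were 95.7% identical over their aligned coding sequence, so a UMI of either is uncertain between them; Tcrg-V3 has the same last 90 bases as Tcrg-V1.

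Transcripts of the gamma chain, which the choice of cells did not use, were found in most members. Tcrg-C1 had a UMI in 69 of 89 stimulated (77.5%, 67.5% to 85.7%) and 46 of 74 unstimulated members (62.2%, 50.1% to 73.2%). In Ncr1-positive cells without any CD3 UMI it was found in 17.2% of 1317 stimulated and 17.7% of 1100 unstimulated cells, whose median depths were 7353 and 5978.5 UMIs, and in B-lineage cells in 0 of 8 and 0 of 14. Tcrg-C2 was found in 28 of 89 stimulated (22.0% to 42.2%) and 37 of 74 unstimulated members (38.1% to 61.9%), against 0.456% and 0.0909% of Ncr1-positive cells. Tcrg-C4 was found in 22 stimulated members (24.7%, 16.2% to 35.0%) and 29 unstimulated members (39.2%, 28.0% to 51.2%), against 17.5% and 13.2% of Ncr1-positive cells. The interval for Tcrg-C4 in stimulated members thus included the share in Ncr1-positive cells. Other T cells carried these genes too. In T cells with Trac and without Trdc, Tcrg-C1 was found in 25.5% of stimulated and 23.2% of unstimulated cells. Tcrg-C2 was found there in 20.2% (12.6% to 29.8%) and 20.0%, and Tcrg-C4 in 12.8% and 9.68%. In Trdv4-positive cells the shares were 88.7% and 89.4% for Tcrg-C1, 24.2% and 32.6% for Tcrg-C2, and 38.7% and 34.0% for Tcrg-C4. When each cell was thinned to 2500 UMIs, Tcrg-C1 was found in 47.7% of stimulated and 45.9% of unstimulated members and Tcrg-C2 in 9.09% (4.01% to 17.1%) and 32.4% (22.0% to 44.3%). In this single random draw at equal depth the shares of Tcrg-C1 lay close together, while those of Tcrg-C2 had intervals that did not overlap. Without thinning the Tcrg-C2 intervals overlapped, and UMIs of Tcrg-C1 and Tcrg-C2 are uncertain between them. Thinned T cells with Trac and without Trdc had Tcrg-C2 in 7.53% of stimulated and 10.6% of unstimulated cells.

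Trgv2 was the leading gamma V segment among members. It was found in 26 of 89 stimulated (29.2%, 20.1% to 39.8%) and 29 of 74 unstimulated members (39.2%, 28.0% to 51.2%). It was at 0 in all 1317 and 1100 Ncr1-positive cells, which allows a share of cells with a UMI, not of cells that express it, of up to 0.280% and 0.335% by the exact interval. Other T cells also carried it: 21 of 124 stimulated and 49 of 141 unstimulated Trdv4-positive cells, and 11 of 94 and 38 of 155 Trac-positive T cells. Its summed level was 60.3 CPM in stimulated and 171 CPM in unstimulated members, a lower level after IL-23 by 2.81-fold (1.94-fold to 4.19-fold). In Trdv4-positive cells it stood at 38.7 and 111 CPM and in Trac-positive T cells at 24.2 and 76.8 CPM, so all 3 T cell classes of the stimulated library had the lower value. Tcrg-C2, which lies beside Trgv2 on the same strand and is joined to it in rearranged chains, was found in 13 of 26 stimulated and 24 of 29 unstimulated members with Trgv2, and in 15 of 63 and 13 of 45 members without it.

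Other V segments were rare in members. Tcrg-V6 was found in 5 stimulated (5.62%, 1.85% to 12.6%) and 5 unstimulated members (6.76%, 2.23% to 15.1%), against 21 of 124 and 32 of 141 Trdv4-positive cells. Tcrg-V4, the segment of another mouse type 17 population, was found in 4 stimulated and 5 unstimulated members, Tcrg-V1 in 3 and 3, Tcrg-V5 in 2 and 2, and Tcrg-V7, the segment of most intestinal intraepithelial gamma delta T cells, in 1 and 1. Any gamma V segment was found in 36 stimulated (40.4%) and 38 unstimulated members (51.4%). A delta V segment other than Trdv4 was found in 3 stimulated and 8 unstimulated members, mostly Trdv5 with 1 and 6, so the delta V segment of most members was not seen at this depth. Trdv5 runs against Trdc and overlaps its end (chr14:54148662-54149294 on the minus strand against chr14:54142851-54148868 on the plus strand), so its few UMIs are uncertain.

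Beta chain constant transcripts were common in members and in innate cells alike. Trbc1 was found in 64 of 89 stimulated (71.9%) and 57 of 74 unstimulated members (77.0%), against 69.5% and 70.7% of Ncr1-positive cells. Its level was 517 and 866 CPM in members, against 294 and 354 CPM in Ncr1-positive cells. Trbc2 was found in 73 stimulated (82.0%) and 65 unstimulated members (87.8%), against 57.9% and 64.9% of Ncr1-positive cells. Both genes stood at least 1.5-fold higher in members than in Ncr1-positive cells, and at least 1.5-fold lower in stimulated than in unstimulated members. Members without a UMI of either numbered 4 and 3. Transcripts that carry a beta V segment were rare: a Trbv segment was found in 2 stimulated and 2 unstimulated members, against 16 of 94 and 23 of 155 Trac-positive T cells. An alpha V segment was found in 1 stimulated and 0 unstimulated members, against 10 of 94 and 15 of 155 Trac-positive T cells.

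**Figure D1:**
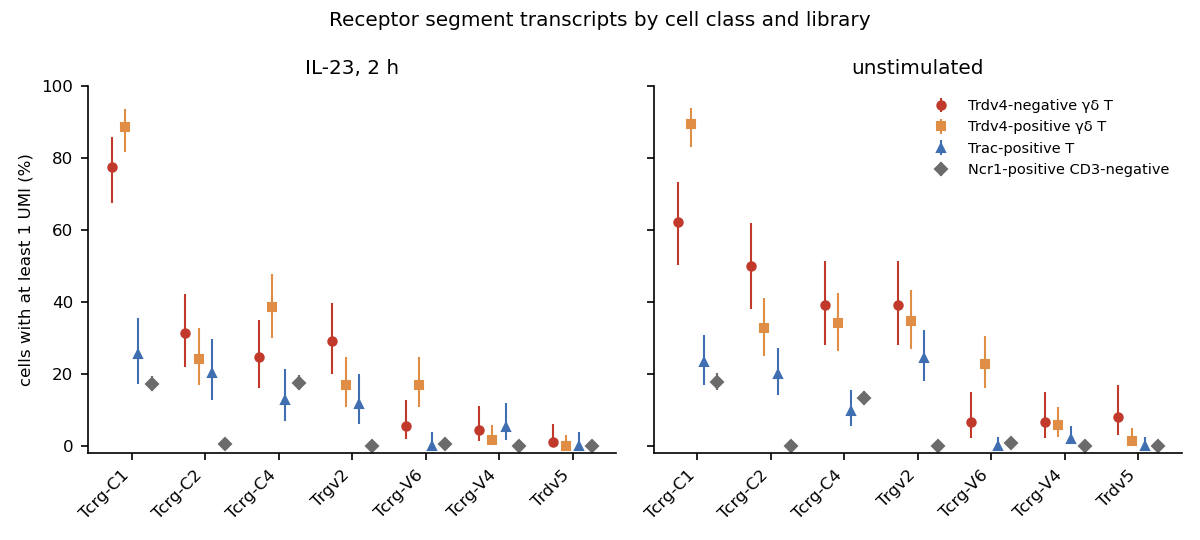
Share of cells with at least 1 UMI of 7 receptor genes (y axis, percent) by cell class, in the IL-23 library (left) and the unstimulated library (right); bars are 95% exact binomial intervals for counting error. Trgv2 was found in 29.2% of stimulated and 39.2% of unstimulated Trdv4-negative gamma delta T cells and in none of the Ncr1-positive cells.

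The members divided between 2 scavenger receptor genes. Cd163l1 (chr7:140218267-140231145, plus strand) and 5830411N06Rik (chr7:140247284-140300736, plus strand) are neighbouring paralogs on GRCm38 that encode the scavenger receptors known as SCART proteins. In mice they have been described on type 17 gamma delta T cells, Cd163l1 with Tcrg-V6 cells and 5830411N06Rik with Tcrg-V4 cells. Cd163l1 without 5830411N06Rik was found in 42 of 89 stimulated (47.2%, 36.5% to 58.1%) and 28 of 74 unstimulated members (37.8%, 26.8% to 49.9%). 5830411N06Rik without Cd163l1 was found in 26 stimulated (29.2%, 20.1% to 39.8%) and 30 unstimulated members (40.5%, 29.3% to 52.6%). Both were found together in 5 and 3 members and neither in 16 and 13. In Trdv4-positive cells the division was one-sided, with Cd163l1 alone in 107 of 124 stimulated and 114 of 141 unstimulated cells and 5830411N06Rik alone in 2 and 4. The median Trdc count with Cd163l1 alone was 6 UMIs in stimulated and 2.5 in unstimulated members, against 15 and 14 in Trdv4-positive cells. With 5830411N06Rik alone it was 2 and 2.5 UMIs in members. A cell that expresses Trdv4 but gave no UMI of it would be counted as a member and cannot be told apart here. Ncr1-positive cells had neither in 97.4% of cells of each library.

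Tcrg-V6 lay with Cd163l1 in members, and Tcrg-V4 and Trgv2 were less one-sided, in small numbers. All Tcrg-V6 cells among unstimulated members, 5 of 5, had Cd163l1, as did 4 of 5 stimulated ones, while 0 of 5 in each library had 5830411N06Rik. Members without Tcrg-V6 had Cd163l1 in 43 of 84 stimulated and 26 of 69 unstimulated cells, and 5830411N06Rik in 31 and 33. Tcrg-V4 was found with 5830411N06Rik in 2 of 4 stimulated and 4 of 5 unstimulated members that had it, and with Cd163l1 in 0 of 4 and 2 of 5. Those without it had 5830411N06Rik in 29 of 85 stimulated and 29 of 69 unstimulated cells, and Cd163l1 in 47 and 29. Trgv2 was found with 5830411N06Rik in 13 of 26 stimulated and 19 of 29 unstimulated members, and with Cd163l1 in 9 of 26 and 9 of 29. Members without Trgv2 had 5830411N06Rik in 18 of 63 stimulated and 14 of 45 unstimulated cells, and Cd163l1 in 38 and 22. These groupings were made after the values had been seen and have no test.

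Members with Cd163l1 alone and members with 5830411N06Rik alone differed in further genes in both libraries. The genes below were picked after their values had been seen, and no count over all measured genes is given. Lilr4b, a receptor of the leukocyte immunoglobulin-like family, stood at 37.2 CPM in stimulated and 26.2 CPM in unstimulated cells with Cd163l1 alone, against 478 and 184 CPM with 5830411N06Rik alone. Cd9, a tetraspanin, stood at 12.4 and 15.7 CPM against 147 and 124 CPM. These 2 genes thus stood higher in the 5830411N06Rik cells of both libraries, as did Ldlrad4, a regulator of TGF-beta signalling, at 71.2 and 47.2 CPM with Cd163l1 alone against 279 and 226 CPM. Il21r, the IL-21 receptor, stood at 18.6 and 5.25 CPM against 133 and 216 CPM, but 17 of its 28 stimulated UMIs in the 5830411N06Rik cells came from 1 cell, without which the level was 56.7 CPM. On the other side, Zbtb16, a transcription factor of innate-like lymphocytes, stood at 127 and 99.7 CPM with Cd163l1 alone, against 56.8 and 32.2 CPM. Pdcd1, the inhibitory receptor PD-1, stood at 229 and 247 CPM with Cd163l1 alone, against 80.5 and 134 CPM with 5830411N06Rik alone. The median depths of these cells were 7060 and 6096 UMIs with Cd163l1 alone and 6854 and 6823.5 UMIs with 5830411N06Rik alone.

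**Figure D2:**
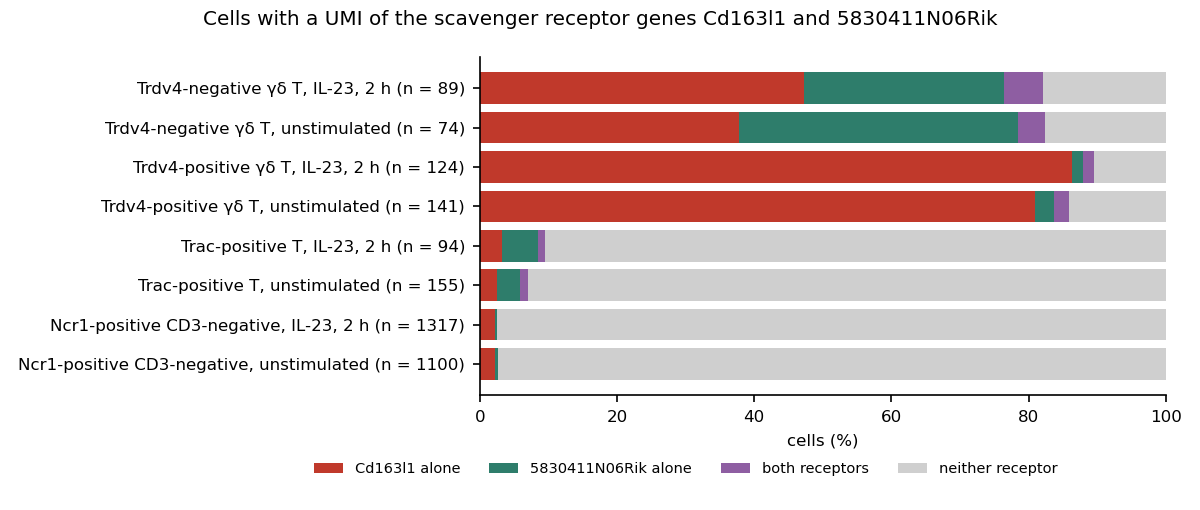
Percent of cells (x axis) with a UMI of Cd163l1 alone, of 5830411N06Rik alone, of both or of neither, for 4 cell classes in the IL-23 and the unstimulated library; n is the number of cells. The Trdv4-negative gamma delta T cells hold both kinds (47.2% and 29.2% after IL-23, 37.8% and 40.5% unstimulated), where the Trdv4-positive cells hold nearly only the first.

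Against Ncr1-positive CD3-negative cells, the question was which genes set members apart from innate lymphocytes with the same reporter. Measured genes were those that reached 10 CPM in one group or the other and 20 UMIs over both together. A gene is called higher or lower where it differed at least 1.5-fold the same way in both libraries. Of 6916 measured genes, 713 were higher (10.3%) and 499 lower (7.22%) in members. The markers named for these cells stood higher in members than in Ncr1-positive cells. Ccr2, the receptor for monocyte chemoattractants, stood at 456 CPM in stimulated and 376 CPM in unstimulated members against 47.3 and 36.9 CPM in Ncr1-positive cells, and S100a6, a calcium-binding protein of migrating cells, at 244 and 137 CPM against 18.7 and 9.78 CPM. Cd3e stood at 359 and 365 CPM, Cd3g at 462 and 390 CPM and Trdc at 640 and 578 CPM in members, and at 0, 0 and at most 2.04 CPM in Ncr1-positive cells, as the choice of both classes requires. These markers did not set members apart from Trdv4-positive cells, since the 5 together summed to 2161 and 1846 CPM in members, against 3890 and 3915 CPM in Trdv4-positive cells. Ccr2 stood at 815 and 555 CPM and S100a6 at 292 and 350 CPM in the Trdv4-positive cells.

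The genes that differed most from Ncr1-positive cells, with receptor genes and the genes of the choice left out, included receptor signalling genes and the scavenger receptors. 5830411N06Rik stood at 116 CPM in stimulated and 125 CPM in unstimulated members against 0.658 and 0.951 CPM in Ncr1-positive cells. Ank2, which encodes an ankyrin that anchors membrane proteins, followed at 73.2 and 86.2 CPM against 0.470 and 0.815 CPM. Cd163l1 stood at 210 and 202 CPM against 6.30 and 6.11 CPM, 33.1-fold and 32.8-fold higher. Cd247, the zeta chain that relays the T cell receptor signal, stood at 108 and 84.3 CPM against 1.41 and 0.951 CPM. Each of these 4 was thus at under 7 CPM in the innate cells and at over 70 CPM in members of both libraries. Grap2, a T cell adaptor, was 15.7-fold and 12.9-fold higher, and Blk, a kinase needed for type 17 gamma delta T cells in mice, 10.2-fold and 12.0-fold. Among surface receptors, Slamf1 stood at 57.4 and 54.9 CPM against 0.752 and 1.36 CPM, Il21r at 57.4 and 120 CPM against 1.22 and 4.62 CPM, and Pdcd1 at 148 and 174 CPM against 9.59 and 14.9 CPM. Ccr2 and S100a6 were themselves among the 15 highest genes. The other 4 were Ldlrad4, Pdlim1, Ccdc30 and Pard3, a polarity protein.

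The 10 genes lowest against Ncr1-positive cells included receptors and chemokines of innate lymphocytes. Fcgr3, an Fc receptor for IgG, stood at 7.17 CPM in stimulated and 7.84 CPM in unstimulated members against 77.7 and 106 CPM in Ncr1-positive cells. Xcl1, the ligand of the dendritic cell receptor Xcr1, stood at 5.74 CPM on 4 UMIs and 5.88 CPM on 3 UMIs against 62.4 and 68.3 CPM. Cxcl3, a neutrophil chemoattractant, stood at 14.3 and 13.7 CPM against 266 and 291 CPM, 17.6-fold and 19.8-fold lower. Chad, a matrix protein, stood at 7.17 and 3.92 CPM against 189 and 220 CPM, the second on 2 UMIs in members. Car2, the carbonic anhydrase, stood at 86.1 and 66.6 CPM against 700.4 and 822 CPM, and the others were Sft2d2, Gjb2, Dppa2, Ccdc184 and Upp1.

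The counts of the gene lists in this contrast are read against 10.3% higher and 7.22% lower among all measured genes. Of 10 measured T cell signalling genes, 7 were higher in members in both libraries, among them Lat (58.8 and 70.6 CPM against 7.43 and 7.74 CPM) and Bcl11b (97.6 and 98.0 CPM against 15 and 11.7 CPM); 0 were lower, and 3 of the 7 are the CD3 chains of the choice itself. Of 11 natural killer type receptors and cytotoxic genes, 9 were lower, one of them Ncr1 itself, among the rest Klrk1, an activating receptor, at 138 and 129 CPM against 446 and 432 CPM, and Fcer1g, a signalling chain of many innate receptors, at 83.2 and 104 CPM against 624 and 463 CPM. Of 14 S100, annexin and related genes, 8 were higher, among them S100a4 and Lgals1. Of 20 homing genes, 6 were higher, among them Ccr2, Ccr6, Cxcr3, S1pr1 and Klf2, and the integrins Itga4, Itga1 and Itgb1 were lower. Of 10 ILC3 markers only Ccr6 was higher, while Ncr1, Kit, Klrb1b and Il22 were lower and Il23r lay between. The medians of all measured genes stood at log2 0.08 and 0.00 in this contrast, and a scaling on the bulk of genes (TMM) would shift every log2 ratio by -0.16 in the stimulated and -0.08 in the unstimulated library.

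Il22 was lower in members than in the Ncr1-positive cells, at 14647 and 3140 CPM against 30112 and 4911 CPM. Il17a was higher, at 331 and 56.8 CPM against 141 and 6.52 CPM, but 1 stimulated member held 90 of its UMIs. Among stimulated members with Cd163l1 alone, which include that cell, Il17a stood at 430 CPM with it and 158 CPM without it. Areg, the epidermal growth factor family member amphiregulin, stood at 257 and 167 CPM against 85.5 and 53.0 CPM, but in members 75 of its 179 stimulated and 46 of its 85 unstimulated UMIs came from the richest cell. Il7r, the IL-7 receptor, stood at 939.9 and 898 CPM against 344 and 481 CPM. Ctla4 stood at 759 and 120 CPM against 362 and 32.5 CPM.

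Against Trdv4-positive gamma delta T cells, 102 of 6194 measured genes were higher (1.65%) and 180 lower (2.91%) in both libraries. 5830411N06Rik was 8.72-fold and 6.02-fold higher in members, at 116 and 125 CPM against 12.9 and 20.5 CPM. Ldlrad4 was 5.50-fold and 4.13-fold higher, Lilr4b 7.07-fold and 3.58-fold, and Cd9 16.3-fold on 3 UMIs in the stimulated Trdv4-positive cells and 3.16-fold in the unstimulated library. The other 4 of the 8 highest were Il21r, Slamf1, Dusp10, a phosphatase of stress kinases, and Cxcl2, a neutrophil chemoattractant. Of these 8 genes, Ldlrad4, Lilr4b, Cd9 and Il21r were also the ones described above as higher in members with 5830411N06Rik alone. Both comparisons use the UMIs of the same members, so this overlap is a description only and no second observation. Of the 8 lowest, Zeb2, a transcription factor of effector lymphocytes, stood at 152 and 80.4 CPM in members against 359 and 175 CPM, and Anxa2, an annexin, at 45.9 and 35.3 CPM against 110 and 106 CPM. Nebl, Hs6st2, Sema6a, Cand1 and Acpp were also among them, each 1.95-fold to 3.52-fold lower. In the lists, Il17f was the 1 of 11 effector cytokines higher in both libraries (Tnfsf8 was lower), at 478 and 100 CPM against 214 and 27.7 CPM, and Socs3 the 1 of 26 STAT3 targets, at 636 and 172 CPM against 362 and 97.3 CPM. Among Il17f UMIs of members, 23 lay in 1 unstimulated cell and 14 in another, and 88 lay in 1 stimulated cell. Whether Il17f stays higher in members without these cells was not tested. The S100 and annexin list had 0 of 14 higher and 2 lower, and T cell signalling 0 of 9 either way.

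Against Trac-positive T cells, chosen by the same CD3 limits with Trac and without Trdc, 256 of 6353 measured genes were higher (4.03%) and 391 lower (6.15%). Several co-receptors of alpha beta T cells were close to absent in members. Cd6 was at 0 UMIs in members of both libraries against 101 and 158 CPM, at least 23.6-fold and 26.8-fold lower by a floor of 3 UMIs over the group. Cd28 stood at 4.30 CPM on 3 UMIs and 1.96 CPM on 1 UMI against 325 and 294 CPM, and Cd5 at 1.43 CPM on 1 UMI and 0 UMIs against 112 and 111 CPM. Cd4 had 4 UMIs in 2 stimulated and 0 in unstimulated members against 128 and 125 CPM. Of 17 measured T cell signalling genes, 9 were lower in both libraries and 0 higher. Of 8 gamma delta markers, all 8 were higher in both, which includes Trdc from the choice. Other genes higher in members were Edil3, an integrin ligand, at 68.9 and 76.4 CPM against 3.31 and 4.08 CPM, and Jag1, a Notch ligand, at 165 and 104 CPM against 11 and 8.99 CPM. Il17a was lower in members, at 331 and 56.8 CPM against 645 and 418 CPM, and Il22 higher, at 14647 and 3140 CPM against 7311 and 1050 CPM. All 4 measured cycling genes, Mki67, Top2a, Cdk1 and Stmn1, were lower in members, with Top2a at 7.17 and 5.88 CPM against 92.6 and 71.9 CPM.

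**Figure D3:**
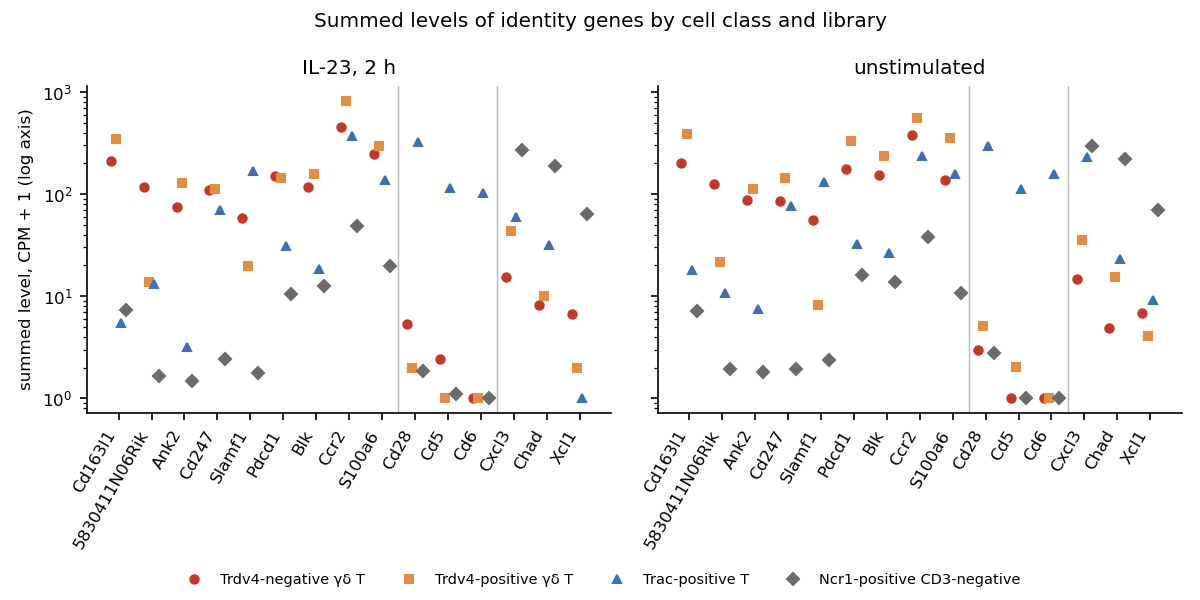
Summed level of 15 genes (y axis, CPM + 1, log axis) in 4 cell classes, in the IL-23 library (left) and the unstimulated library (right), without replicates. Genes left of the first line stand high in Trdv4-negative gamma delta T cells against Ncr1-positive cells, Cd28, Cd5 and Cd6 in the middle are near 0 outside Trac-positive T cells, and Cxcl3, Chad and Xcl1 on the right stand highest in Ncr1-positive cells, except that Cxcl3 is also at 229 CPM in unstimulated Trac-positive T cells.

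Stimulated against unstimulated members, the question was which transcripts differ after 2 h of IL-23. Of 5826 measured genes, 635 were at least 1.5-fold higher (10.9%) and 726 at least 1.5-fold lower (12.5%) in the stimulated library, with a median log2 ratio of -0.05 over all of them. The highest ratios belonged to transcription factors and signalling genes. Batf, a partner of the factor that drives Il17 genes, stood at 317 CPM in stimulated and 29.4 CPM in unstimulated members, 10.5-fold higher (6.40-fold to 19.6-fold). It was found in 61 of 89 and 10 of 74 cells, against 1 of 8 and 0 of 14 B-lineage cells. Irf4, the interferon regulatory factor that binds DNA with Batf, stood at 122 and 9.80 CPM, 11.4-fold higher (5.13-fold to 39.3-fold), but in only 16 and 3 cells. Prdm1, the transcription factor Blimp-1, stood at 100 and 9.80 CPM, 9.38-fold higher (4.19-fold to 32.5-fold). Sbno2, a corepressor that STAT3 induces, stood at 268 and 27.4 CPM, 9.47-fold higher (5.68-fold to 18.2-fold). Batf and Sbno2 were thus spread over most stimulated members, and Irf4 lay in a minority. Bcl3, an atypical member of the NF-kB inhibitor family, stood at 109 and 17.6 CPM, 5.90-fold higher.

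Surface and signalling genes made up most of the rest. Ctla4, the inhibitory receptor of the CD28 family, stood at 759 CPM in stimulated and 120 CPM in unstimulated members, 6.30-fold higher (4.86-fold to 8.42-fold), and was found in 58 and 24 cells. Il1r1, the receptor of IL-1, stood at 423 and 68.6 CPM, 6.09-fold higher (4.34-fold to 9.03-fold), in 71 and 22 cells. Gadd45g, a growth arrest and stress kinase activator, stood at 363 and 54.9 CPM, 6.51-fold higher (4.47-fold to 10.2-fold), in 51 and 8 cells. In B-lineage cells, Ctla4 was found in 2 of 8 stimulated and 7 of 14 unstimulated cells, Il1r1 in 1 and 3, and Gadd45g in 2 and 0. The share of unstimulated members with Ctla4 was thus not above that in the 14 B-lineage cells, whose median depth was 13703 UMIs against 6260 in members. The Ctla4 level was 203 CPM in these B-lineage cells, 120 CPM in unstimulated members and 32.5 CPM in unstimulated Ncr1-positive cells. How much of the Ctla4 count in unstimulated members is background was not tested. No single cell carried these genes in stimulated members, where the richest cell held 52 of 529 Ctla4 UMIs, 11 of 295 Il1r1 UMIs and 27 of 253 Gadd45g UMIs. In unstimulated members the richest cell held 19 of 61, 3 of 35 and 10 of 28 in the same order. Without the UMIs of the richest cell on each side, a setting chosen after seeing the data, the log2 ratios were 3.04, 2.68 and 3.16. With them they were 2.66, 2.61 and 2.70. Pqlc1, a lysosomal transporter family member, had the highest ratio, at 187 and 11.8 CPM, 14.7-fold (7.09-fold to 44.0-fold). Swap70, a signalling protein of the actin skeleton, stood at 97.6 CPM against 5.88 CPM on 3 UMIs, a ratio of 14.3 (5.44 to 82.5). Ffar2, a receptor for short-chain fatty acids, stood at 71.7 and 7.84 CPM, Elovl6, a fatty acid elongase, at 99.0 and 15.7 CPM, Stom, a membrane protein, at 129 and 21.6 CPM, Aopep, an aminopeptidase, at 61.7 and 7.84 CPM, and Apex1, a DNA repair enzyme, at 54.5 and 7.84 CPM. All 15 genes were also higher in the stimulated library in Trdv4-positive cells and in Ncr1-positive cells, so none is called particular to members. Among all measured genes 9.6% of 7154 were at least 1.5-fold higher in the stimulated library in Trdv4-positive cells and 5.05% of 6910 in Ncr1-positive cells. Batf, for example, stood at 301 and 18.4 CPM in Trdv4-positive and at 593 and 25.3 CPM in Ncr1-positive cells.

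**Figure D4:**
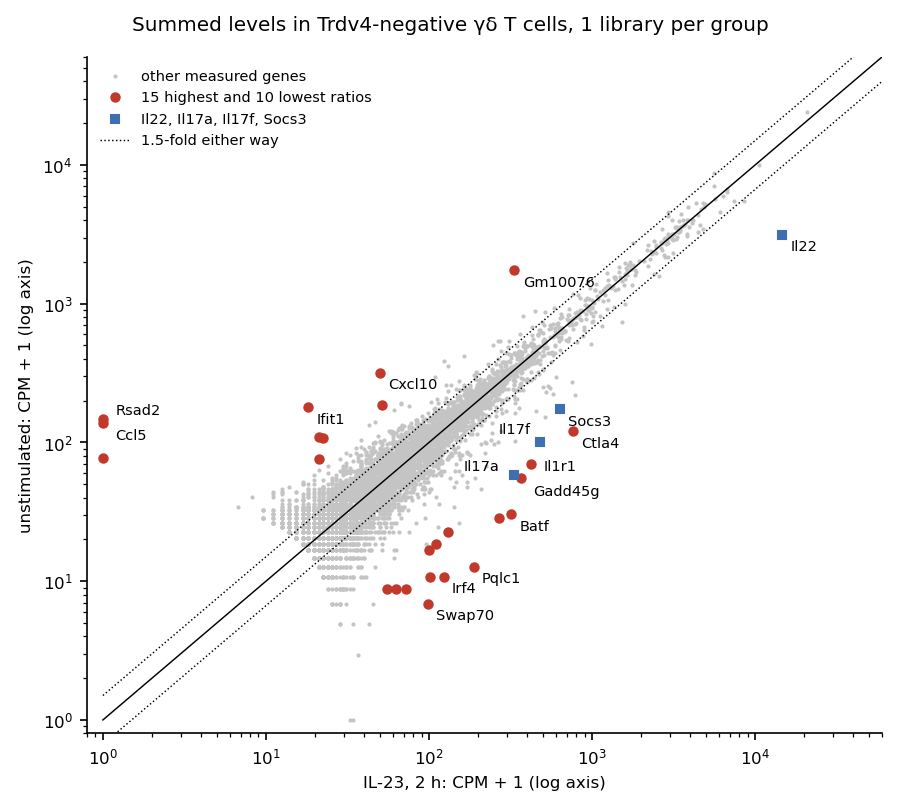
Each point is a measured gene in Trdv4-negative gamma delta T cells, at its summed level in the IL-23 library (x axis) and in the unstimulated library (y axis), both as CPM + 1 on log axes, 1 library each. Batf, Ctla4, Il1r1 and Il22 lie below the 1.5-fold line (317, 759, 423 and 14647 CPM after IL-23 against 29.4, 120, 68.6 and 3140 CPM), and the interferon-induced genes Rsad2, Ifit1 and Cxcl10 lie above the diagonal.

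Transcripts of the cytokines IL-22, IL-17A and IL-17F all stood higher after IL-23. Il22 stood at 14647 CPM in stimulated and 3140 CPM in unstimulated members, 4.66-fold higher (4.42-fold to 4.92-fold). A UMI of Il22 was found in 85 of 89 and 35 of 74 members, but also in 8 of 8 stimulated and 5 of 14 unstimulated B-lineage cells, at 3092 and 919 CPM and median depths of 7194.5 and 13703 UMIs. The share of cells with Il22 is therefore not read as the share that express it, and the level is the measure used. The level in B-lineage cells was also higher in the stimulated library. How much of the share or of the level in members is background was not tested. By cell, the median was 3902 CPM in stimulated and 0 CPM in unstimulated members, and the highest cell reached 133168 and 36023 CPM. Il17a stood at 331 CPM in stimulated and 56.8 CPM in unstimulated members, 5.75-fold higher (3.95-fold to 8.90-fold), in 22 and 11 cells, and 90 of its 231 stimulated UMIs came from 1 cell. Il17f stood at 478 and 100 CPM, 4.74-fold higher (3.55-fold to 6.55-fold), in 29 and 11 cells, and its richest stimulated cell held 88 of 333 UMIs. B-lineage cells had no Il17a UMI and at most 1 Il17f UMI.

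IL-17 genes were found in a minority of members. Il17a or Il17f was found in 38 of 89 stimulated (42.7%, 32.3% to 53.6%) and 17 of 74 unstimulated members (23.0%, 14.0% to 34.2%), and both in 13 and 5. The 28 unstimulated cells with Cd163l1 alone held 1 Il17a and 3 Il17f UMIs, and the 30 with 5830411N06Rik alone held 23 and 47. Of those 47 Il17f UMIs, 23 lay in 1 cell and 14 in another, and the richest Il17a cell held 6 of the 23. After IL-23 the levels were 430 CPM of Il17a and 242 CPM of Il17f with Cd163l1 alone, where 90 of 139 and 53 of 78 UMIs lay in the richest cell, against 379 and 388 CPM with 5830411N06Rik alone. Il22 stood at 17399 CPM in stimulated and 5624 CPM in unstimulated cells with Cd163l1 alone, and at 10228 and 1450 CPM with 5830411N06Rik alone, so it was higher after IL-23 in both. In unstimulated cells with Cd163l1 alone, 481 of 1072 Il22 UMIs lay in the richest cell, without which the level was 3422 CPM. Leaving out the richest cell was chosen after seeing the data.

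Of 10 measured effector cytokine genes, 4 were at least 1.5-fold higher (Il17a, Il17f, Il22 and Areg) and 2 lower, with a median log2 ratio of 0.03, against 10.9% higher and 12.5% lower among all measured genes. Tnfsf11, the cytokine RANKL, stood at 66.0 CPM in stimulated and 192 CPM in unstimulated members, 2.89-fold lower (2.03-fold to 4.23-fold). Lta, lymphotoxin alpha, stood at 10.0 and 29.4 CPM on 7 and 15 UMIs. Tgfb1 (141 and 129 CPM), Tnf (23.0 and 23.5 CPM) and Ltb (139 and 184 CPM) lay within 1.5-fold.

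**Figure D5:**
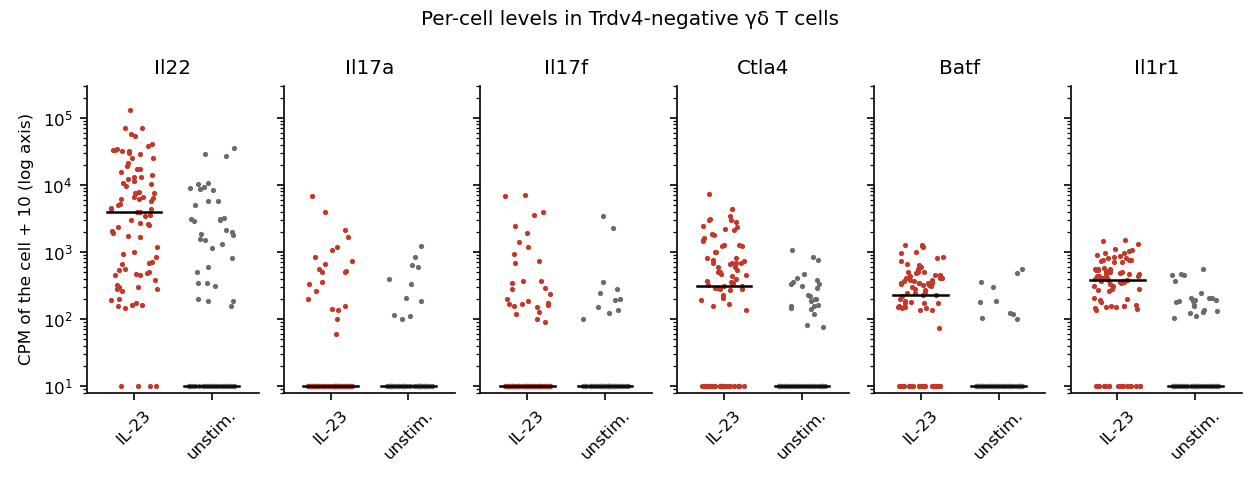
Level of 6 genes in each of the 89 stimulated (left, red) and 74 unstimulated (right, grey) Trdv4-negative gamma delta T cells, as CPM of the cell + 10 on a log axis; bars are medians and points at the bottom are cells without a UMI. The medians of Il22, Ctla4, Batf and Il1r1 are above 0 in the stimulated library (3902, 301, 219 and 375 CPM) and at 0 in the unstimulated one, and those of Il17a and Il17f are at 0 in both. Il22 was also found in B-lineage cells of both libraries, and how much of its level is background was not tested.

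Of 27 measured STAT3 targets and feedback genes, 17 were at least 1.5-fold higher, 2 were lower and 8 lay between, with a median log2 ratio of 0.74 against -0.05 over all measured genes. Among all measured genes 10.9% were higher and 12.5% lower. Socs3, the feedback inhibitor that STAT3 induces, stood at 636 CPM in stimulated and 172 CPM in unstimulated members, 3.67-fold higher (2.93-fold to 4.69-fold), in 73 and 39 cells. Hif1a, the hypoxia-inducible factor, stood at 496 and 249 CPM, Ahr, the aryl hydrocarbon receptor on which Il22 depends, at 102 and 45.1 CPM, and Stat3 itself at 805 and 531 CPM. Il23r, the receptor chain by which all cells had been sorted, stood at 255 and 153 CPM, 1.67-fold higher (1.27-fold to 2.21-fold). Cebpd stood at 44.5 CPM against 5.88 CPM on 3 UMIs, a ratio of 6.59 (2.36 to 38.7). Pim3 and Vegfa were lower, at 47.4 and 110 CPM and at 12.9 and 37.2 CPM, while Pim1 (1558 and 1356 CPM), Junb (2480 and 2570 CPM) and Cish (389 and 343 CPM) lay within 1.5-fold. The list was assembled with results of these data known. It holds Batf, Irf4, Sbno2, Prdm1, Bcl3 and Il1r1, which were named above for their high ratios, so its count and median are a description only.

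The palindrome TTCNNNGAA, a STAT binding motif searched on both strands from 250 bases before to 50 after the start of each gene in RefSeq (GRCm38.p6), was present in the promoter of 1 of 14 of the highest genes with a promoter sequence and in 0 of 7 of the lowest, against 9.55% of 27025 genes. The 1 gene was Sbno2, whose 2 annotated starts both hold it. The first window is chr10:80102703-80102758 on the minus strand and the second chr10:80101188-80101241 on the minus strand, 5′ to 3′, with the motif in capitals.
Sbno2, first start: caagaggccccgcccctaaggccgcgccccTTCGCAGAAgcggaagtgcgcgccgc
Sbno2, second start: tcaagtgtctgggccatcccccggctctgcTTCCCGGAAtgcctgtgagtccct
The motif begins 26 bases before the first and 24 bases before the second start. The share among the highest genes lay near that of all genes, and a match is a description of the letters only.

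Of 16 measured cytokine receptors, 6 were higher and 1 lower after IL-23, against 10.9% higher and 12.5% lower among all measured genes. Beside Il23r and Il1r1 these were both chains of the IL-18 receptor, Il18r1 at 359 CPM in stimulated and 237 CPM in unstimulated members and Il18rap at 77.5 and 37.2 CPM, the IL-2 receptor chain Il2ra at 423 and 280 CPM, and Il17re, the receptor of IL-17C, at 68.9 and 33.3 CPM. Il21r was lower, at 57.4 and 120 CPM, but its richest cells held 17 of 40 and 16 of 61 UMIs. Of 7 costimulatory receptors, Icos (1591 and 998 CPM) and Tnfrsf25 (141 and 47.0 CPM), the receptor of the cytokine TL1A, were higher, and Cd27 (23.0 and 58.8 CPM) and Tnfrsf1b were lower. Of 6 inhibitory receptors, Ctla4 was higher and Cd160, Cd200r1 and Cd96 were lower on 6 to 21 UMIs, while Pdcd1 (148 and 174 CPM) lay within 1.5-fold.

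Of 21 lineage factors, 7 were higher and 3 lower, against 10.9% and 12.5% of all measured genes, so that the share lower lay near the background. Gata3 stood at 45.9 CPM in stimulated and 86.2 CPM in unstimulated members and Tcf7, the factor TCF-1, at 66.0 and 106 CPM, while Zeb2 stood at 152 and 80.4 CPM. Of 17 homing genes, 1 was higher and 3, Cxcr3, Klf2 and Itgb2, were lower, which is also near those shares of all genes. Ccr2 (456 and 376 CPM), Ccr6 (30.1 and 33.3 CPM) and Cxcr6 (713 and 829 CPM) lay within 1.5-fold. Of the 5 markers of these cells, S100a6 was higher, at 244 and 137 CPM, 1.77-fold (1.34-fold to 2.38-fold), and Cd3e, Cd3g, Trdc and Ccr2 lay between. In Trdv4-positive cells S100a6 stood at 292 and 350 CPM and thus not in the same direction, a difference that was not tested.

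Among genes of survival and metabolism, Bcl2 stood at 66.0 CPM in stimulated and 188 CPM in unstimulated members, 2.83-fold lower (1.99-fold to 4.14-fold), and the death factor Bcl2l11 at 182 and 114 CPM. The list counts that follow are read against 10.9% higher and 12.5% lower among all measured genes. Ero1l, an oxidase of the endoplasmic reticulum, stood at 512 and 151 CPM, 3.38-fold higher (2.65-fold to 4.40-fold), and it was with Hk1 and Pfkfb3 the 3 of 15 glycolysis and hypoxia genes past 1.5-fold, with 0 lower. Most NF-kB targets lay within 1.5-fold, 13 of 17, with Icam1 (191 and 54.9 CPM) and Birc3 higher and Tnfaip3 (359 and 600 CPM) and Rel (145 and 241 CPM) lower. Immediate early genes gave 15 of 20 within 1.5-fold, 3 higher and 2 lower. Heat shock genes gave 9 of 10 within 1.5-fold and 1 lower, and mitochondrially encoded genes 12 of 13 and 1 lower. MHC class II genes gave 4 of 4 higher, but 1 stimulated cell held 83 of 99 Cd74 UMIs, 31 of 39 H2-Aa UMIs and 24 of 25 H2-Eb1 UMIs, so that count rests on a single cell.

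The genes with the lowest ratios were led by interferon-induced genes, and these came from 1 cell. Rsad2, Ccl5 and Oasl1 were at 0 UMIs in stimulated members and stood at 147, 137 and 76.4 CPM in unstimulated members, at least 34.1-fold, 31.9-fold and 17.8-fold lower by a floor of 3 UMIs over the group. A single unstimulated member with 14077 UMIs and 3205 genes held 73 of 75 Rsad2, 70 of 70 Ccl5 and 39 of 39 Oasl1 UMIs, 81 of 91 Ifit1 and 140 of 162 Cxcl10 UMIs. It had 9 CD3 chain UMIs and 1 Trdc UMI, and no UMI of Lyz2, Cd79a or Epcam. Without that cell the ratio of Cxcl10 was log2 0.13, against -2.69 with it. The other low genes were spread over more cells: Gm10076, a ribosomal protein pseudogene, stood at 333 and 1735 CPM in 84 of 89 and 74 of 74 cells, Pcyt1a, an enzyme of phosphatidylcholine synthesis, at 50.2 and 184 CPM in 21 and 38 cells, and Bicd1, Gm10827 and Ccrl2 in 6 to 15 cells each. Gm10076 was lower in the stimulated library in Trdv4-positive and Ncr1-positive cells too, at log2 -2.30 and -2.23, where 12.5% and 6.95% of all measured genes were at least 1.5-fold lower.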

How the data were processed

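Cells were sorted from the small intestine of reporter mice and sequenced by 10x Genomics droplets in 1 library per group. The deposited files hold UMI counts per gene and cell, unscaled, made by the authors with Cell Ranger 3.1.0 on mm10 per the submitters' processing notes, while the matrix headers name cellranger 6.0.0. No source used here states the strand or multi-mapping settings.

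Members and gene lists were chosen with earlier results of these data known. Classes were cut by UMI limits: members as described, Trdv4-positive cells with 1 or more Trdv4 UMI, Trac-positive T cells with Trac and without Trdc, Ncr1-positive cells with 1 or more Ncr1 UMI and no CD3 chain UMI, and B-lineage cells with 2 or more Cd79a UMIs. Counts were summed per class and library and scaled to CPM. Ratios carry 0.5 UMI added to each sum and a 95% conditional binomial interval for counting error. With 1 library per group nothing was tested. Measured genes reached 10 CPM on either side and 20 UMIs over both. Shares were also taken after thinning each cell to 2500 UMIs, which left out 1 stimulated and 0 unstimulated members. No doublet caller was run; an alternative leaves out the 5% of members with most UMIs.

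The genes named are the 15 highest and 10 lowest ratios after IL-23 and against Ncr1-positive cells, and the 8 highest and lowest against the other T cells, among genes with at least 50 CPM on the higher side, plus receptor genes, the 5 markers and 2 to 4 examples of each list. Other genes were named after their values were seen, and so were both scavenger receptor groupings. Of 32285 gene identifiers, 32235 were found in GENCODE M21, which gave coordinates and sequences on GRCm38; promoters came from RefSeq. The ratio code was tested on simulated data. Python 3.11.15, numpy 2.4.6, scipy 1.17.1, pandas 2.3.3, Biopython 1.88, matplotlib 3.10.9, R 4.3.3 and edgeR 4.0.16 (for TMM factors only) were used. A few genes of the lists and of the naming rule are not reported here.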

Additional observations from a re-analysis of the deposited data

How the results depend on the processing

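Each library is a single sample, so the values describe these libraries, and genes under about 20 UMIs have wide counting intervals. No paired analysis was possible because each group has 1 library. Of 350 values of the 25 genes named after IL-23 under 14 other settings, 299 stayed within their counting interval, 44 moved and 7 changed sign. Of 450 values of the 50 ratios against Ncr1-positive cells under 9 settings, 427 stayed and 23 moved. Of 72 shares of receptor genes under 9 settings, 61 stayed and 11 moved, of which thinning moved all 8.

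With Trac, Trbc1 and Trbc2 all at 0, 4 stimulated and 3 unstimulated members were left, and 75 genes were higher and 74 lower after IL-23. The log2 ratio of Gm10827 was then 3.1, and those of Aopep, Apex1 and Elovl6 were -0.36 each. The latter is the value of any gene with equal UMI counts in both groups, 0 UMIs included, and comes from the depths alone. These 3 values are counted among the 7 changes of sign but measure no difference. The log2 ratio of Cxcl10 was 0.25 without the 5% of members with most UMIs, and, under settings chosen after seeing the data, 3.62 with at least 3 Trdc UMIs (57 stimulated and 37 unstimulated members) and 0.13 without the unstimulated member richest in Rsad2. With no minimum besides 1 UMI, 2721 genes were higher and 2668 lower after IL-23, and 3377 higher and 840 lower against Ncr1-positive cells. With a 50 CPM minimum, 282 were higher and 312 lower after IL-23, and 200 higher and 282 lower against Ncr1-positive cells. With at least 3 Ncr1 UMIs in the comparison cells, 472 genes were higher in members. The 50 CPM minimum leaves fewer genes to count and the Trbc limit fewer cells; for the other values, that with at least 3 Ncr1 UMIs included, the cause was not tested.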
